A study of Homo sapiens with 6 samples.

Results

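The splicing genes described here are the SR proteins, the hnRNPs and the proteins of the core spliceosome, measured by RNA sequencing in a human mesenchymal stem cell line with and without a knockout of SRRM4. They were chosen by gene symbol among the protein-coding genes of the count table, which gave 82 genes of 58735 genes in all and of 19951 protein-coding genes. By class these were 11 SR proteins (SRSF symbols, SRSF11 left out), 27 hnRNPs, 13 genes of SF3A, SF3B and U2AF, 13 PRPF proteins and 18 SNRP or SNRNP proteins. SNRPN, a close relative of SNRPB, falls outside the symbol rule. The symbol rule uses no measured value, although it was set with earlier results of these data known.

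UE7T-9 is a line derived from human bone marrow mesenchymal stem cells, grown here in DMEM. The control group holds 3 libraries of UE7T-9 cells with the genotype WT, and the SRRM4 KO group holds 3 libraries of UE7T-9 cells in which SRRM4 was targeted with lentiviral CRISPR v2. The knockout line was grown from a single cell by dilution, so that it is 1 clone, and the study describes it as not a complete knockout. The labels do not say whether the controls carried a vector, nor whether replicates were separate cultures, and p-values therefore measure only the spread between these libraries. SRRM4, a neural splicing regulator, had 0 counts in all 6 libraries, where 3 counts correspond to 0.123 to 0.139 CPM (counts scaled to a common library size), so its RNA gave no check of the knockout.

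Splicing removes introns from pre-mRNA in the spliceosome, which is built from small nuclear RNAs and their proteins (snRNPs). U1 recognises the 5′ splice site, U2 with SF3A and SF3B binds the branch point, U2AF reads the 3′ splice site, and the U4/U6.U5 tri-snRNP with the PRPF proteins joins before catalysis. SR proteins mostly bind exonic enhancers and favour the use of nearby splice sites, while hnRNPs coat pre-mRNA and often oppose the use of such sites. Most of these proteins are made in nearly all human cells, and many of them control the splicing of their own transcripts.

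Libraries held 21496117 to 23868323 counts. Control replicate 1 stood apart from the other libraries. It had 22403 genes with a count, against 20127 to 20674 in the other 5, and it was the lowest control in 43 of the 76 splicing genes tested. Mesenchymal markers were present in every library and all 5 moved with the group. COL1A1 fell from 27881 to 11870 CPM (control against KO means), THY1 from 144 to 26.7 CPM and ENG from 246 to 194 CPM, while NT5E rose from 342 to 490 CPM and VIM from 874 to 1122 CPM. Their sum was 27638 to 30919 CPM in control and 12778 to 14409 CPM in KO. The neural markers summed to 40.5 to 47.5 CPM in control and 65.7 to 67.1 CPM in KO. Of these 4 genes NEFL, a neurofilament, rose from 15.6 to 40.6 CPM (edgeR adjusted p = 2.69e-07), while SYT1 (24.7 and 22.9 CPM), SNAP25 (3.47 and 2.37 CPM) and TUBB3 (0.730 and 0.334 CPM) were not called. The blood cell markers summed to 20.1 to 21.5 CPM in control and 17.9 to 21.1 CPM in KO. Most of this was CD14, at 16.8 and 15.9 CPM, and CD34, at 3.69 and 3.63 CPM, while PTPRC averaged 0.0308 and 0.0589 CPM. The epithelial markers summed to 97.0 to 118 CPM in control and 101 to 108 CPM in KO. Of these, KRT18 was at 84.0 and 88.5 CPM, KRT8 was lower in KO at 24.7 and 16.4 CPM, CDH1 was at 0.937 and 0.494 CPM, and EPCAM averaged 0.0463 and 0.0137 CPM. The part of these marker genes in the results was not tested.

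Genes of dividing cells also moved with the group. All 10 of a list that included MKI67, TOP2A, CCNB1 and CDK1 rose, with a median log2 fold change of 1.30, and their summed level was 779 to 848 CPM in control and 1855 to 1912 CPM in KO. The part of this difference in the values of the splicing genes was not tested. In bulk RNA, fewer cells of a type and less RNA per cell cannot be told apart.

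Of the 82 genes, 78 had a count and 76 had enough counts to be tested. A gene was called when its p, from the quasi-likelihood test of edgeR and adjusted by Benjamini-Hochberg over all 15341 genes tested, was under 0.05. In SRRM4 KO, 39 of the 76 were called higher and 3 lower, and 34 were not called. Among all genes tested 20.7% were called higher and 20.9% lower, while the splicing genes had 51.3% and 3.95%. Most of these genes are abundant, with 69 of 76 at a mean of at least 10 CPM. Among the 9707 tested genes at that level 25.8% were called higher and 22.9% lower, 48.7% in all. The median log2 fold change (KO over control) of the 76 genes was 0.28, against -0.0052 over all genes tested.

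The changes were small. Between the lowest and the highest library of each group, 45 of the 76 genes had every KO library above every control library and 8 had every KO library below. Over all genes tested these shares were 25.9% and 25.9%, and at a mean of at least 10 CPM they were 31% and 27%. With a log2 fold change beyond 1 required as well, the count was 1 gene, U2AF1L4, which was lower, and the background share was 12.6% in either direction (5.45% higher and 7.14% lower). Summed over all classes, the level was 9120, 9581 and 9474 CPM in the control libraries and 10977, 11276 and 11009 CPM in the KO libraries. The groups did not overlap, and the ratio of means was 1.18.

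**Figure D1:**
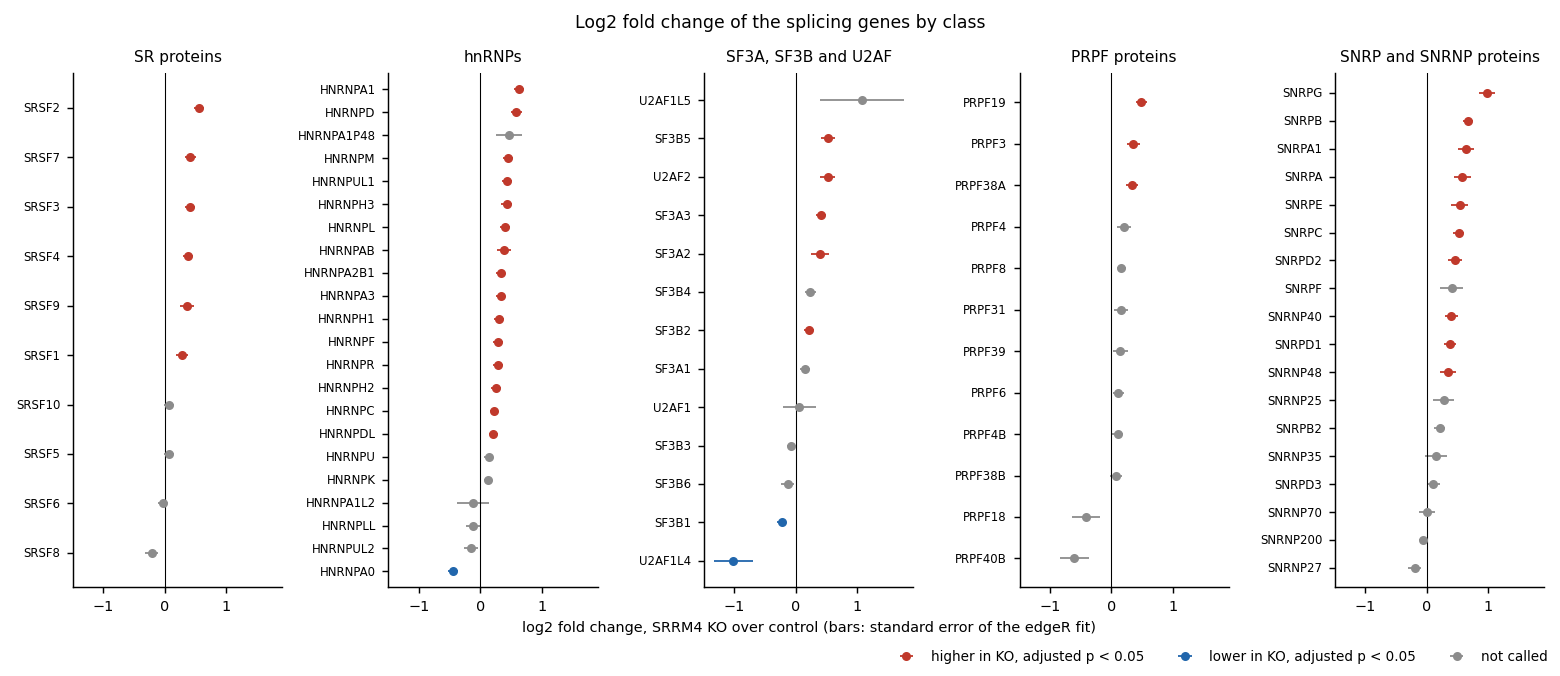
Log2 fold change (SRRM4 KO over control) of 75 of the 76 splicing genes tested, by class, with bars of 1 standard error and colours for the call at an adjusted p of 0.05. Most points lie to the positive side, 39 are called higher and 3 lower, and U2AF1L5 has the widest bar.

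**Figure D2:**
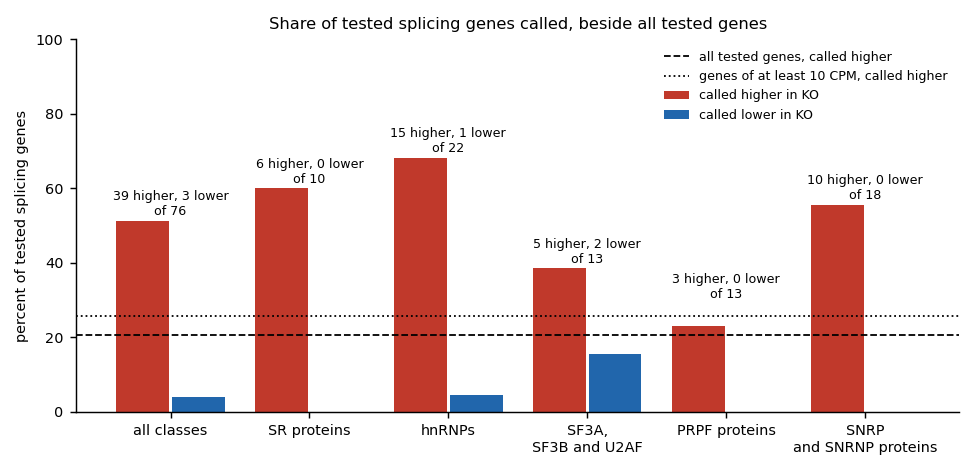
Percent of the tested genes of each class called higher and lower in SRRM4 KO, with lines for all tested genes (20.7%) and for genes of at least 10 CPM (25.8%) called higher. The hnRNPs are highest at 68.2% and the PRPF proteins at 23.1% lie between the lines.

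The hnRNPs had 15 of 22 tested genes called higher and 1 lower, with a median log2 fold change of 0.30. The SR proteins had 6 of 10 called higher and none lower, with a median of 0.32, and the SNRP and SNRNP proteins had 10 of 18 higher and none lower, with a median of 0.39. SF3A, SF3B and U2AF had 5 of 13 higher and 2 lower with a median of 0.22, and the PRPF proteins had 3 of 13 higher and none lower with a median of 0.15. At 23.1%, the share of PRPF proteins called higher was near the background. No test of a difference between classes was made. Leaving out 1 library gave 11 to 16 hnRNPs higher, 4 to 6 SR proteins, 8 to 10 SNRP and SNRNP proteins, 3 to 5 of SF3A, SF3B and U2AF and 1 to 4 PRPF proteins. The same fits called 16.2% to 22.5% of all tested genes higher.

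For 6 of the called genes the sequence before the RefSeq transcription start (GRCh38.p14) is shown. They are genes from 4 classes, chosen after their values were seen, whose 150 bases shown lie outside every annotated exon of GENCODE release 29 and hold one of the motifs searched. Capitals mark those motifs on either strand. The box CCAAT lies in SRSF3 and SF3B5, and its complement ATTGG in SRSF3, SNRNP48 and HNRNPA0. The ETS motif is CCGGAAG and lies in SNRPC, while the E-box CACGTG lies in SNRNP48 and SF3B1. The letters TATAAA begin 30 bases before the start in SRSF3, while the complement TTTATA in SNRPC begins 237 bases before it, in a stretch that ends 100 bases before the start, and the E2F motif TTTGGCGC lies in SF3B1. The sequences run 5′ to 3′ on the strand of the gene, and the first 4 genes were higher in KO and the last 2 lower.
SRSF3, chr6:36594203-36594352, plus strand: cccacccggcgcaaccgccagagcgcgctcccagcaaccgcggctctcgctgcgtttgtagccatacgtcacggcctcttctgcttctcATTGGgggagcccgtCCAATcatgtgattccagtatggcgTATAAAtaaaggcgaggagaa
SNRPC, chr6:34757256-34757405, plus strand: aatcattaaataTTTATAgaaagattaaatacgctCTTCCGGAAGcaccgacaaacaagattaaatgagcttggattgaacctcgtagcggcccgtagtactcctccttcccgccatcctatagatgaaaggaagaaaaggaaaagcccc
SF3B5, chr6:144095574-144095723, minus strand: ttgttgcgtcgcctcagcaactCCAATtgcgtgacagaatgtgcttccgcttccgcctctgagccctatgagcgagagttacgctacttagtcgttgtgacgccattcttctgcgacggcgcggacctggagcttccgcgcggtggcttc
SNRNP48, chr6:7590048-7590197, plus strand: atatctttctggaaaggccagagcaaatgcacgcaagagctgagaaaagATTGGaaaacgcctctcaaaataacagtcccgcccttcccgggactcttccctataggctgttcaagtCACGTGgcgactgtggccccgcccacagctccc
HNRNPA0, chr5:137754377-137754526, minus strand: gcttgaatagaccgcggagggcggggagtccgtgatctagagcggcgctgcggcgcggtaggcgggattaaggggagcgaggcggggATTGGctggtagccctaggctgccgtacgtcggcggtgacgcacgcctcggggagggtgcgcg
SF3B1, chr2:197435094-197435243, minus strand: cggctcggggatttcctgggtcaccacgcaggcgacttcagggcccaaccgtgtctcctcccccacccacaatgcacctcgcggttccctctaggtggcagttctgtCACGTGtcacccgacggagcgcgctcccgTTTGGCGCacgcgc

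The motifs were searched on both strands in the 250 bases before each RefSeq start. A window was found for 70 of the 82 genes, 89 windows in all, some of which overlap because a gene can have several starts. In SNRPC the 2 ETS matches overlap, since CTTCCGGAAG reads alike on both strands. CCGGAAG was held by 28.1% of these windows, against 13.4% of the windows of all tested genes and 8.52% of all 35116 windows. Its share was 30% in windows of the genes called higher and 29.4% in those tested and not called higher. CCAAT was held by 43.8% of the windows, against 32.7% for all tested genes, with 44% where the gene was called higher and 41.2% where it was not.

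The E-box CACGTG was held by 16% of the windows of genes called higher and 5.88% of those not called higher, against 8.04% for all tested genes. TATAAA was held by 12% and 0% of the same windows, against 6.23% for all tested genes. The E2F motif TTTGGCGC was held by 0% and 5.88%, against 0.828%, and a second form, TTTCCCGC, by 2% and 5.88%, against 2.02%. The 5.88% of CACGTG and that of TTTGGCGC were the same 2 overlapping windows of SF3B1, so that both shares come from that gene alone. The NRF1 motif was in none of the 89 windows, against 1.56% of the windows of all tested genes. These are counts of letters over few windows (50 and 34), no test was made on them, and binding was not measured.

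Among the SR proteins, SRSF2, SRSF7, SRSF3, SRSF4, SRSF9 and SRSF1 rose. SRSF2, an activator that reads exonic enhancers, was at 123, 108 and 103 CPM in the control libraries and at 165, 164 and 163 CPM in the KO libraries. Every KO library was above every control library, and the log2 fold change was 0.56 ± 0.0864 (SE, n = 3 and 3, edgeR adjusted p = 9.79e-05). SRSF2 shares 36.7% of its exonic bases with MFSD11 on the opposite strand, and these libraries do not record strand.

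SRSF3, the smallest SR protein, which also takes part in mRNA export, was at 251, 234 and 252 CPM in control and 312, 332 and 337 CPM in KO. SRSF7, a zinc-knuckle SR protein, was at 79.2, 85.1 and 83.8 CPM in control and 107, 108 and 116 CPM in KO. SRSF4, which has a long RS domain, was at 80.5, 73.9 and 78.1 CPM in control and 101, 105 and 96.0 CPM in KO. None of these 3 genes overlapped between groups, and their fold changes were 1.33, 1.34 and 1.30.

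SRSF1, the founding SR protein, was less far apart, with 73.4, 62.1 and 65.6 CPM in control and 79.4, 78.2 and 87.0 CPM in KO. The change was 0.28 ± 0.0943 on the log2 scale (SE, n = 3 and 3, edgeR adjusted p = 0.0253), and every KO library was above the controls. Of its 50-base sequences 50.8% are shared with the gene AC015813.2, so that part of its reads could be assigned to either gene. SRSF9 rose by 1.29-fold, with control replicate 1 at 38.7 CPM below the other controls at 55.7 and 51.7 CPM, and 46.2% of its exonic bases overlap GATC on the opposite strand. Its log2 fold change of 0.36 ran from 0.22 to 0.47 when 1 library was left out.

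The other SR proteins were not called. SRSF6, the SR protein with the highest level per length at 54.2 RPKM (CPM per kilobase of the gene's exons, mean of all libraries), was at 264, 251 and 238 CPM in control and 238, 237 and 264 CPM in KO, so that the groups overlapped. SRSF5 and SRSF10 had log2 fold changes of 0.072 and 0.073. When 1 library was left out, these ran from 0.0055 to 0.12 and from 0.048 to 0.097. SRSF8, a copy of SRSF2, had -0.21 (edgeR adjusted p = 0.102) with every KO library below every control library. SRSF12 had too few reads to be tested (4, 4 and 2 in the control libraries, 3, 0 and 0 in the KO libraries).

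**Figure D3:**
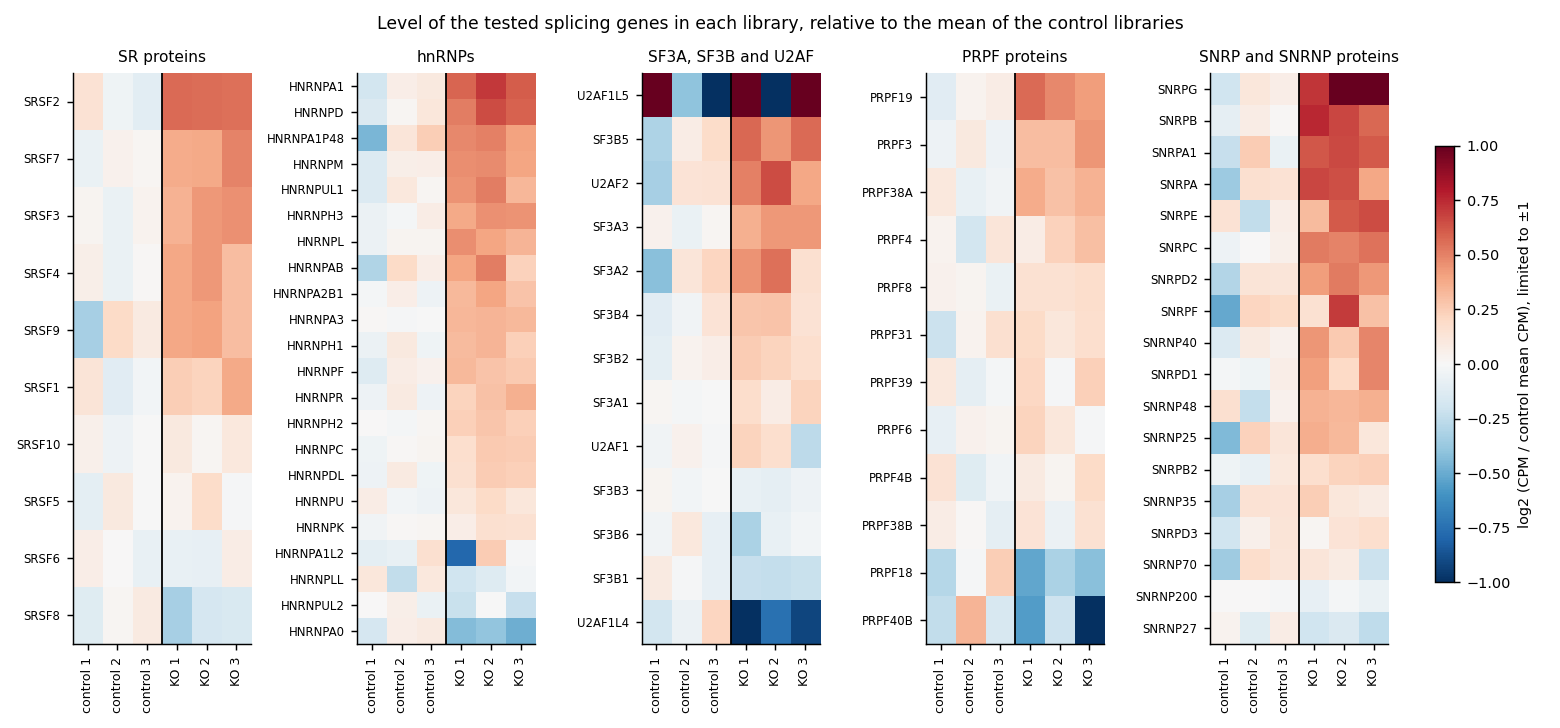
Level of 75 of the 76 tested genes in each of the 6 libraries, as the log2 ratio of the CPM to the mean of the control libraries, limited to ±1 and sorted by fold change within each class. The KO columns are warmer in the upper rows of every class, control 1 is cooler than the other controls in many rows, and U2AF1L5 varies within both groups.

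HNRNPA1 and HNRNPD had the largest rises among the hnRNPs. HNRNPA1 (chromosome 12, 54280193 to 54287088, GRCh38), a splicing repressor that binds UAG-containing motifs, was also the most abundant per length of all 82 genes at 116 RPKM. It was at 409, 484 and 497 CPM in control and 695, 757 and 703 CPM in KO. The groups were far apart, with a log2 fold change of 0.63 ± 0.0825 (SE, n = 3 and 3, edgeR adjusted p = 1.86e-05). HNRNPA1 has many processed copies in the genome, and 22.8% of its 50-base sequences occur in other genes.

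HNRNPD, also called AUF1, which binds AU-rich elements and promotes mRNA decay, was at 148, 165 and 176 CPM in control and 233, 256 and 245 CPM in KO. Its log2 fold change was 0.59 ± 0.0858 (SE, n = 3 and 3, edgeR adjusted p = 5.60e-05). HNRNPM, which binds GU-rich RNA, was at 163, 187 and 188 CPM in control and 248, 249 and 236 CPM in KO. In both genes every KO library lay above every control library.

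HNRNPA2B1, known for binding RNA that is sorted and transported, was at 516, 548 and 506 CPM in control and 655, 688 and 636 CPM in KO. HNRNPC, which binds uridine tracts and packages nascent transcripts, was at 342, 353 and 358 CPM in control and 394, 420 and 418 CPM in KO. Neither gene overlapped between groups, and their fold changes were 1.26 and 1.17.

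HNRNPUL1, HNRNPH3, HNRNPL, HNRNPAB, HNRNPA3, HNRNPH1, HNRNPF, HNRNPR, HNRNPH2 and HNRNPDL were called higher as well, with fold changes from 1.35 (HNRNPUL1) to 1.16 (HNRNPDL). The log2 fold change of HNRNPAB was 0.38, and it ran from 0.25 to 0.49 when 1 library was left out. HNRNPL, which binds CA repeats, was at 119, 126 and 126 CPM in control and 171, 163 and 157 CPM in KO. HNRNPA3 varied little within groups, at 234, 231 and 231 CPM in control and 291, 294 and 290 CPM in KO. HNRNPH2 is on chromosome X, where the median tested gene was at 0.32, and its own log2 fold change was 0.25.

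HNRNPA0, a small hnRNP A/B protein that binds AU-rich elements, was the only hnRNP called lower. It was at 207, 243 and 247 CPM in control and 172, 176 and 166 CPM in KO, with no overlap. The log2 fold change was -0.44 ± 0.0859 (SE, n = 3 and 3, edgeR adjusted p = 0.000752). HNRNPA0 is a gene with a single exon (chromosome 5, 137745651 to 137754376, GRCh38), and none of its 50-base sequences occur in another gene.

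HNRNPK, a poly(C)-binding hnRNP with the second highest level per length at 111 RPKM, was at 531, 549 and 552 CPM in control and 570, 607 and 605 CPM in KO. The groups did not overlap, but the log2 fold change of 0.13 ± 0.0682 was not called (SE, n = 3 and 3, edgeR adjusted p = 0.155). HNRNPU, a scaffold protein that binds chromatin, had 0.14, HNRNPLL had -0.12 and HNRNPUL2 had -0.15. HNRNPA1L2 and HNRNPA1P48 are copies of HNRNPA1 and share 58.5% and 51.6% of their 50-base sequences with other genes, and their log2 fold changes of -0.12 and 0.46 were not called. HNRNPUL2-BSCL2 had at most 3 counts in a library, and HNRNPCL1, HNRNPCL2, HNRNPCL3 and HNRNPCL4, copies of HNRNPC, were at 0 counts in all 6, so that these 5 were not tested.

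The SNRP genes encode the proteins of the snRNPs themselves. The Sm ring is formed by 7 proteins around each of the U1, U2, U4 and U5 RNAs, and 5 of its 7 genes rose. This was 71.4%, against 25.8% of all tested genes of at least 10 CPM. SNRPG (chromosome 2, 70281362 to 70293771, GRCh38) was at 15.9, 19.8 and 19.1 CPM in control and 30.0, 39.3 and 38.6 CPM in KO. The log2 fold change of 0.98 ± 0.135 was the highest among the 39 genes called higher (SE, n = 3 and 3, edgeR adjusted p = 3.09e-05). The median tested gene of chromosome 2 was at -0.25. SNRPG has processed pseudogenes, of which SNRPGP15 held 113 to 175 counts and SNRPGP10 13 to 68 counts in a library.

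SNRPB (chromosome 20, 2461634 to 2470853, GRCh38), the Sm protein with the highest level per length at 85.8 RPKM, was at 79.8, 89.1 and 85.1 CPM in control and 143, 135 and 126 CPM in KO. Its increase on the log2 scale was 0.67 ± 0.0872 (SE, n = 3 and 3, edgeR adjusted p = 1.89e-05). Of the 50-base sequences of SNRPB 15.7% are shared with the gene AL049650.1. SNRPD2 was at 62.0, 83.4 and 83.0 CPM in control and 102, 109 and 103 CPM in KO. In both genes the KO libraries were all above the controls, and for SNRPD2 control replicate 1 was below the other controls.

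SNRPE and SNRPD1 rose by 1.45-fold and 1.30-fold. SNRPF was not called, with 15.1, 24.9 and 24.5 CPM in control and 23.9, 34.9 and 26.4 CPM in KO. The groups overlapped, and its log2 fold change was 0.40 ± 0.182 (SE, n = 3 and 3, edgeR adjusted p = 0.0910). It was 0.20 without control replicate 1 and 0.22 without KO replicate 2, and it was called without a filter (adjusted p = 0.0137) and with the replicate block (adjusted p = 0.0228). SNRPD3 had 0.11, with overlapping groups, and ran from 0.014 to 0.17 when 1 library was left out. It shares 12.6% of its exonic bases with GUCD1 on the opposite strand, which averaged 2131 counts against 1292 for SNRPD3. Summed over the 7 genes, the Sm ring was at 286 to 339 CPM in control and 437 to 460 CPM in KO.

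**Figure D4:**
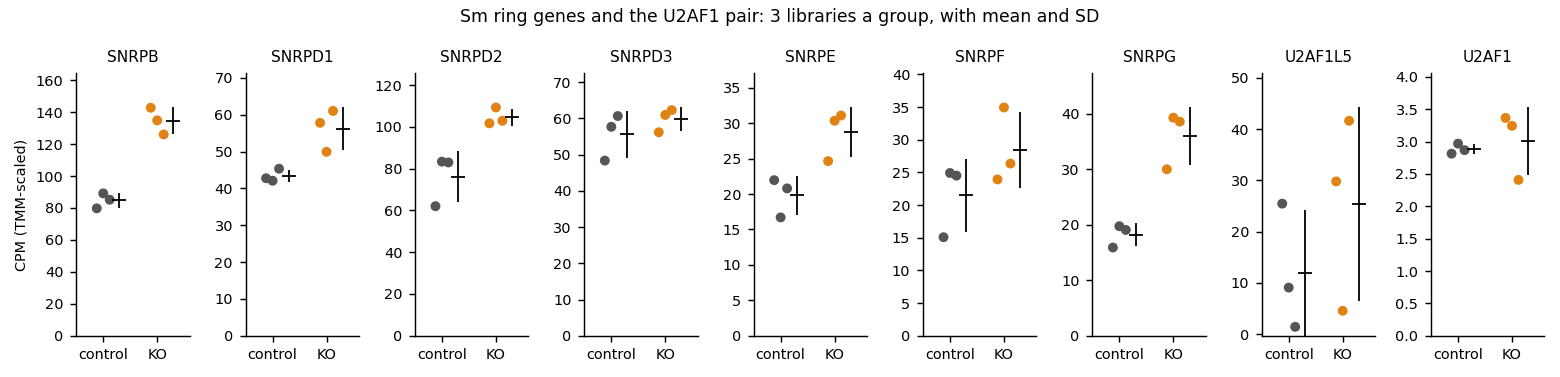
CPM of the 7 Sm ring genes and of U2AF1L5 and U2AF1 in each library (grey, control, and orange, SRRM4 KO), with the mean and SD of 3 libraries beside the points and a separate linear axis for each gene. The groups of SNRPB, SNRPD1, SNRPD2, SNRPE and SNRPG do not overlap, while U2AF1L5 spans 1.43 to 41.6 CPM across the 6 libraries.

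The proteins particular to each snRNP were split. In U1, SNRPA (U1-A), which binds a stem-loop of U1 RNA, was at 24.3, 34.8 and 34.5 CPM in control and 49.6, 48.9 and 40.9 CPM in KO. SNRPC (U1-C), which helps U1 contact the 5′ splice site, was at 51.9, 53.8 and 55.5 CPM in control and 77.0, 75.6 and 78.3 CPM in KO. Their fold changes were 1.49 and 1.43, and neither gene overlapped between groups.

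SNRNP70 (U1-70K), the third U1 protein, was at 139, 202 and 194 CPM in control and 194, 189 and 154 CPM in KO. Its groups overlapped, with a log2 fold change of 0.0027 ± 0.126 (SE, n = 3 and 3, edgeR adjusted p = 0.989). Without control replicate 1, the lowest library, it was -0.15 and not called.

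In U2, SNRPA1 (U2-A′) was at 18.4, 25.7 and 20.7 CPM in control and 33.3, 34.2 and 33.1 CPM in KO, a log2 fold change of 0.63 ± 0.128 (SE, n = 3 and 3, edgeR adjusted p = 0.000991). Its partner SNRPB2 (U2-B″) had 0.21 and was not called, although its KO libraries were all above the controls. In U5, SNRNP40 rose by 1.32-fold. SNRNP200, the helicase Brr2 that unwinds U4 from U6, was at 341, 341 and 338 CPM in control and 322, 336 and 324 CPM in KO. Every KO library was below every control library. The log2 fold change of -0.055 was not called (edgeR adjusted p = 0.575), and SNRNP200 too is on chromosome 2.

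SNRNP27 of the tri-snRNP had -0.20 and was not called, although its KO libraries were all below the controls. Of the proteins of the minor spliceosome, which removes the rare U12-type introns, SNRNP48 rose by 1.27-fold, and SNRNP25 and SNRNP35 had log2 fold changes of 0.27 and 0.15 that were not called. Without control replicate 1 these were 0.094 and 0.0054, and without control replicate 2 they were 0.40 and 0.22. SNRNP35 shares 40.1% of its exonic bases with RILPL1 on the opposite strand.

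SF3A and SF3B hold the U2 snRNP on the branch point. SF3A3 was at 89.2, 82.8 and 88.1 CPM in control and 111, 117 and 117 CPM in KO, a fold change of 1.33 with no overlap. SF3B5, the smallest SF3B subunit and the third gene of all 82 by level per length (95.6 RPKM), was at 43.8, 57.2 and 61.7 CPM in control and 80.6, 73.7 and 80.4 CPM in KO. This was a log2 fold change of 0.53 ± 0.116 (SE, n = 3 and 3, edgeR adjusted p = 0.00190).

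SF3A2 and SF3B2 were called higher with fold changes of 1.32 and 1.16, but less firmly. SF3A2 was at 32.3, 47.0 and 50.01 CPM in control and 58.9, 63.2 and 48.1 CPM in KO, the only gene called higher whose groups overlapped. Without control replicate 1 its log2 fold change was 0.23 and it was not called. SF3B4 (0.24) and SF3A1 (0.16) were not called, with all KO libraries above the controls. SF3B3 (-0.073) was not called either, with all KO libraries below the controls. SF3B6, a subunit that contacts the branch point adenosine, was at 46.6, 51.3 and 45.0 CPM in control and 38.3, 45.3 and 46.9 CPM in KO, and its -0.13 was not called.

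SF3B1 (chromosome 2, 197389784 to 197435091, GRCh38), the subunit that clamps the branch point and is often mutated in myelodysplasia, was called lower. It was at 364, 340 and 323 CPM in control and 291, 290 and 293 CPM in KO, with no overlap. The log2 fold change was -0.23 ± 0.0749 (SE, n = 3 and 3, edgeR adjusted p = 0.0215). The median tested gene of chromosome 2 was at -0.25, and with each chromosome centred on its own median the value was 0.014 (adjusted p = 0.908). The summed level of the 6 SF3B genes was 917 to 925 CPM in control and 923 to 931 CPM in KO.

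U2AF2, the large subunit of U2AF that binds the polypyrimidine tract, was at 99.3, 138 and 139 CPM in control and 178, 197 and 163 CPM in KO. The groups did not overlap, and the log2 fold change was 0.52 ± 0.118 (SE, n = 3 and 3, edgeR adjusted p = 0.00242). U2AF1, the small subunit that contacts the AG of the 3′ splice site, could not be read from these counts. The table holds it as U2AF1 (chromosome 21, 43092956 to 43107587, GRCh38) and as the near-identical U2AF1L5 (chromosome 21, 6484623 to 6499261), and 94.3% of the 50-base sequences of each occur elsewhere.

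U2AF1L5 had 552, 196 and 32 counts in the control libraries and 664, 111 and 916 in the KO libraries. The controls gave U2AF1 itself 61, 64 and 64 counts, and the KO libraries 75, 79 and 53. The sum of both was 613, 260 and 96 counts for control and 739, 190 and 969 for KO, so that libraries of the same group differed more than the groups did. Neither gene was called, with log2 fold changes of 1.08 ± 0.681 for U2AF1L5 (SE, n = 3 and 3, edgeR adjusted p = 0.228) and 0.061 ± 0.263 for U2AF1 (adjusted p = 0.876). Without control replicate 1 the value of U2AF1L5 was 2.27 and was called (adjusted p = 0.0023). Without a filter it was called at 1.08 (edgeR adjusted p = 6.42e-12), from the same counts, whose groups overlap. The main fit gave 0.228 at the same fold change, so this smaller p cannot be taken to measure the spread within groups. How reads with several possible positions were treated is not given in the sources used here.

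U2AF1L4, a paralogue of U2AF1 (chromosome 19, 35742464 to 35745445, GRCh38), was lower and had the largest change of the 42 called genes, from a low level. It was at 2.72, 2.97 and 3.58 CPM in control and 1.08, 1.85 and 1.64 CPM in KO, with no overlap. The log2 fold change was -1.02 ± 0.318 (SE, n = 3 and 3, edgeR adjusted p = 0.0176), which is a fold of 2.03. Without control replicate 3 it was -0.90 (adjusted p = 0.0744), and without KO replicate 1 it was -0.83 (adjusted p = 0.0662). The gene shares 18.9% of its 50-base sequences with other genes and 11.5% of its exonic bases with PSENEN on the opposite strand.

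The PRPF proteins showed the fewest calls. PRPF19, the ubiquitin ligase that gives its name to a complex needed for catalytic activation, was at 80.1, 88.5 and 91.0 CPM in control and 128, 121 and 116 CPM in KO. The groups did not overlap, and the log2 fold change was 0.49 ± 0.0876 (SE, n = 3 and 3, edgeR adjusted p = 0.000351). PRPF3, a U4/U6 protein, was at 27.2, 30.1 and 27.2 CPM in control and 34.8, 34.9 and 38.2 CPM in KO. PRPF38A, needed for activation of the spliceosome, was at 30.7, 27.0 and 27.7 CPM in control and 36.8, 34.9 and 36.3 CPM in KO. They rose by 1.28-fold and 1.26-fold with no overlap.

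PRPF8, the large protein at the catalytic centre, was at 414, 411 and 385 CPM in control and 448, 449 and 456 CPM in KO. All KO libraries were above the controls, but its log2 fold change of 0.16 ± 0.0703 was not called (SE, n = 3 and 3, edgeR adjusted p = 0.0798). PRPF40B, which links U1 to the branch point region, had -0.60 (adjusted p = 0.0588), and its groups overlapped. It was called without control replicate 1 (-0.71), without KO replicate 2 (-0.86), without a filter (-0.60, adjusted p = 0.0141), with upper-quartile normalization (-0.63, adjusted p = 0.05) and with the replicate block (-0.63, adjusted p = 0.0159). It was -0.38 without KO replicate 3 and -0.40 without control replicate 2. Of its exonic bases, 28.0% are shared with FMNL3 on the opposite strand, which averaged 939 counts against 158 for PRPF40B. PRPF18 had -0.41 with every KO library below the controls (adjusted p = 0.170). It held 70 to 119 counts in a library, and 37.1% of its 50-base sequences are shared with the gene AL157392.5. PRPF4, PRPF31, PRPF39, PRPF6, PRPF4B and PRPF38B had log2 fold changes from 0.081 to 0.21 that were not called.

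Of the 39 genes called higher, 13 lost the call in at least 1 of the 6 fits that each left out 1 library. These were SRSF1, SRSF9, HNRNPAB, HNRNPC, HNRNPDL, HNRNPH2, HNRNPR, SF3A2, SF3B2, PRPF3, PRPF38A, SNRPD1 and SNRNP48, with an adjusted p of at most 0.192 (SF3A2 without KO replicate 2) and no change of sign. SRSF1, HNRNPH2, SF3B2 and SNRNP48 were called in 1 of the 6 fits, HNRNPDL and PRPF38A in 2, HNRNPC and SF3A2 in 3, SRSF9, HNRNPAB and PRPF3 in 4, and HNRNPR and SNRPD1 in 5. Leaving out control replicate 1 ended the call of SF3A2 alone among them. The same fit newly called PRPF8 (0.18, adjusted p = 0.0126) and HNRNPU (0.18, adjusted p = 0.0133) higher and SRSF8 (-0.27, adjusted p = 0.0180) lower, beside U2AF1L5 and PRPF40B. The count of higher genes over these 6 fits ran from 29 to 41, while the share of all tested genes called higher ran from 16.2% to 22.5%. SF3B1 lost its call without control replicate 2, KO replicate 1 or KO replicate 2, at an adjusted p of at most 0.0774. With the replicate block the calls of HNRNPDL (adjusted p = 0.0755), HNRNPH2 (0.0614), SF3B2 (0.0852) and SF3B1 (0.0523) were lost, and those of SNRPF and PRPF40B were gained. Without a filter HNRNPDL (adjusted p = 0.0575) and SF3B2 (0.0635) lost the call. When a change had to exceed a fold of 1.2, 18 genes were called higher and the background share was 13.2%.

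The position of the genes moved with their values. Of the 19 tested splicing genes on chromosomes whose median log2 fold change was under -0.2, 5 were higher and 1 lower, with a median of 0.13, where 8% of all tested genes were higher and 36.3% lower. Of the 53 on chromosomes with a median between -0.2 and 0.2, 31 were higher and 2 lower, with a median of 0.34, where 23.1% of all tested genes were higher. Of the 4 on chromosomes above 0.2, 3 were higher, with a median of 0.27, where 38.5% of all tested genes were. The medians of all tested genes on the same chromosomes were -0.26, 0.067 and 0.24, so that the difference in the last group, of 4 genes, was small. With each chromosome centred on its own median, 41 splicing genes were higher and 3 lower. This setting called 18.7% of all tested genes higher and 18.4% lower. The calls of SRSF1 (0.075), HNRNPC (0.13), HNRNPH2 (-0.065), SF3A2 (0.26), SF3B2 (0.11) and SNRNP48 (0.24) were lost, as was that of SF3B1. HNRNPK (0.37), HNRNPA1P48 (0.74), SF3A1 (0.42), SF3B3 (0.21), PRPF4 (0.45), SNRPD3 (0.36), SNRNP25 (0.55) and SNRNP200 (0.19) became called higher, and SRSF8 (-0.32) lower.

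**Figure D5:**
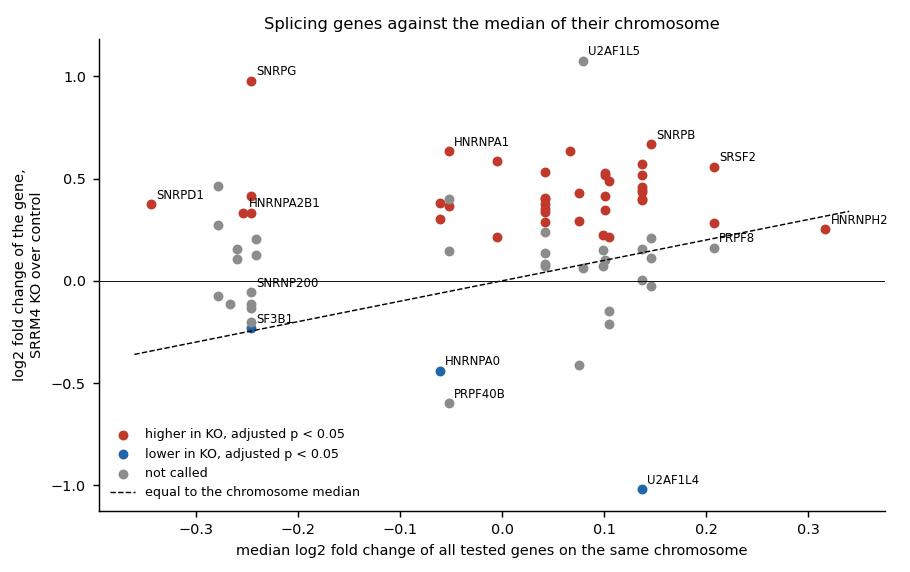
Log2 fold change of 75 of the 76 tested splicing genes (y axis) against the median log2 fold change of all tested genes on the same chromosome (x axis), with a dashed line where the values are equal and colours for the call. SNRPG and SNRPD1 lie far above the medians of their chromosomes, SF3B1 lies on the line, and HNRNPH2 lies just under it.

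Gene length also moved with the values. The 10 tested splicing genes under 2000 exonic bases had a median log2 fold change of 0.49, against 0.13 for all tested protein-coding genes of that length. From 2000 to under 5000 bases the medians were 0.28 for 29 splicing genes and 0.054 for all, and from 5000 bases they were 0.22 for 37 splicing genes and -0.037 for all. In each range the splicing genes called higher were 60%, 51.7% and 48.6%, against 26.1%, 25.7% and 20.6% of all tested protein-coding genes.

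Further genes of the pathway, from lists made by hand, moved in both directions. Of 102 tested genes of 108 listed, 34 were higher (33.3%) and 14 lower (13.7%), with a median log2 fold change of 0.16. Among all tested genes of at least 10 CPM these shares were 25.8% and 22.9%. The proteins that assemble snRNPs had 6 of 16 higher and 1 lower. COIL, the scaffold of Cajal bodies, was at 24.2, 16.5 and 17.3 CPM in control and 39.9, 36.1 and 38.7 CPM in KO. GEMIN4, a subunit of the SMN complex that loads the Sm ring, was at 25.7, 23.2 and 22.9 CPM in control and 44.4, 44.5 and 40.2 CPM in KO. Their fold changes were 1.98 and 1.80, with no overlap. Both genes are on chromosome 17, where the median tested gene was at 0.21.

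The LSM proteins, of which several form a ring like the Sm proteins on U6 RNA, had 6 of 10 higher and none lower. LSM2 was at 18.9, 18.0 and 20.9 CPM in control and 31.7, 32.4 and 29.1 CPM in KO, a fold change of 1.61. Further snRNP, B and C complex proteins had 11 of 44 higher, a share of 25% that was near the background of 25.8%, and 4 lower. RNPC3, a protein of the minor spliceosome, had the largest fall among them. It was at 13.0, 11.5 and 11.2 CPM in control and 8.84, 6.57 and 7.09 CPM in KO, a log2 fold change of -0.67 ± 0.163 (SE, n = 3 and 3, edgeR adjusted p = 0.00409).

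The kinases, phosphatase and importin that act on SR proteins had 2 of 9 higher (22.2%) and 3 lower (33.3%). All 9 had a mean of at least 10 CPM, and among all tested genes at that level the shares were 25.8% and 22.9%. The share called higher was thus near the background. CLK4, a nuclear SR protein kinase, was at 29.1, 22.8 and 26.6 CPM in control and 12.5, 14.0 and 15.7 CPM in KO. Its log2 fold change was -0.90 ± 0.137 (SE, n = 3 and 3, edgeR adjusted p = 8.78e-05). The others were named after their values were seen: the SR kinase SRPK1 (0.55) and the phosphatase PPP1CA (0.48) rose, and SRPK2 (-0.55) and CLK1 (-0.43) fell. The cytoplasmic kinases SRPK1 and SRPK2 thus changed in opposite directions, and the groups of neither gene overlapped. The median tested gene was at 0.10 on chromosomes 6 (SRPK1) and 11 (PPP1CA). It was at -0.25 on chromosomes 7 (SRPK2) and 2 (CLK1), and the part of position in these changes was not tested.

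The further regulators of alternative splicing had 9 of 23 tested genes higher (39.1%) and 6 lower (26.1%). Among all tested genes of at least 10 CPM the shares were 25.8% and 22.9%, so that the share lower was near the background. MBNL2, a muscleblind protein, had the largest fall of all listed splicing genes, with 157, 116 and 132 CPM in control and 59.0, 62.9 and 74.1 CPM in KO. This was a log2 fold change of -1.05 ± 0.117 (SE, n = 3 and 3, edgeR adjusted p = 3.91e-06). MBNL2 is on chromosome 13, where the median tested gene was at -0.27. The tissue-restricted regulators ESRP1, ESRP2, NOVA1, NOVA2, RBFOX1 and RBFOX3 averaged at most 0.499 CPM in a group and were not tested.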

How the data were processed

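mRNA was sequenced without strand in 3 libraries of each group. The values the authors deposited are unnormalized counts of reads, 1 per gene and library, and their processing notes name HISAT2 2.0.5, featureCounts 1.5.0-p3 and DESeq2. The genome build is not given in the sources used here, and all 82 genes have the coordinates of GENCODE release 29 (GRCh38). Libraries were grouped by title.

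The counts were tested with edgeR 4.0.16 in R 4.3.3 (TMM normalization, filterByExpr, prior count 0.125, quasi-likelihood test, Benjamini-Hochberg adjustment over 15341 genes), and each standard error is the absolute log2 fold change divided by the root of F. CPM were computed on library sizes scaled by TMM, and RPKM values divide them by the deposited gene length. Shared sequence was counted in GENCODE transcripts as 50-base sequences. Alternatives were DESeq2 1.42.0, other normalizations and filters, glmTreat, centring by chromosome, a replicate block and leaving out each library.

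Values of each library were given, in every class, for the 4 called genes of largest change, the 2 of highest level per length, genes past a log2 fold change of 1, untested genes and a fixed set of well-known factors; from the further lists, for the 3 largest rises and falls. Other genes were named after their values were seen. Genes, lists and rules were chosen with earlier results of these data known. Same-numbered libraries did not deviate together (r = -0.05, 0.08 and -0.05), so numbers were not taken as pairs. The values of 1 tested gene are not reported here, although it is part of the counts.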

Additional observations from a re-analysis of the deposited data

How the results depend on the processing

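The precision is limited by 3 libraries a group and 1 knockout clone. Of the 39 genes called higher, 26 were called in every fit without 1 library, 26 under every setting other than glmTreat, and 38 kept a positive log2 fold change under every setting run, the exception being HNRNPH2 with chromosomes centred. DESeq2 and its size factors ended no call. Against a fold of 1.2 (glmTreat) the genes called higher were 18 in all, 5 hnRNPs, 1 PRPF, 2 of SF3A, SF3B and U2AF, and 3 SR proteins, and 1 of SF3A, SF3B and U2AF was lower. This way 13.2% of all tested genes were called higher. With a log2 fold change beyond 1 required, 0 were higher and 1 lower. Upper-quartile normalization gave 5 lower in all, 2 of them PRPF proteins, and 3 higher of SF3A, SF3B and U2AF. Without a filter, 5 were lower, 2 of them PRPF proteins, and 2 genes passed a log2 fold change of 1. This fit also called U2AF1L5, whose counts varied widely within both groups, so calls gained by it carry less weight. At least 10 counts in every library gave 1 PRPF lower and 3 higher of SF3A, SF3B and U2AF, and protein-coding genes alone gave 1 PRPF lower. The replicate block gave 37 higher and 3 lower in all, with 1 PRPF lower and 1 of SF3A, SF3B and U2AF lower. It called 20% of all tested genes higher and 19.9% lower. These shares were 19.3% and 22.6% with upper-quartile normalization and 11.9% and 12.2% without a filter. They were 21.4% and 22.5% with at least 10 counts in every library, and 22.6% and 24.1% with protein-coding genes alone.

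Without 1 library, the genes called higher were 29 to 41 in all, 11 to 16 hnRNPs, 1 to 4 PRPF, 8 to 10 SNRP and SNRNP, 3 to 5 of SF3A, SF3B and U2AF and 4 to 6 SR proteins. Those called lower were 1 to 5 in all, 0 to 1 PRPF, 0 to 2 of SF3A, SF3B and U2AF and 0 to 1 SR proteins, and 1 to 2 genes passed a log2 fold change of 1. The same fits called 16.2% to 22.5% of all tested genes higher and 17.5% to 21.9% lower.

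With chromosomes centred, which called 18.7% of all tested genes higher and 18.4% lower, 41 splicing genes were higher and 3 lower. Among them 1 SR protein and 1 of SF3A, SF3B and U2AF were lower, and 2 genes passed a log2 fold change of 1. The sign turned for PRPF8 (-0.046), SNRNP200 (0.19, adjusted p = 0.0455), SF3B1 (0.014), SF3B3 (0.21, adjusted p = 0.0418), SNRNP70 (-0.13), SRSF5 (-0.027), HNRNPH2 (-0.065), PRPF6 (-0.034), HNRNPLL (0.13), SF3B6 (0.11), SNRNP27 (0.046), HNRNPA1L2 (0.15) and U2AF1 (-0.018). SNRNP70 was also at -0.029 with upper-quartile normalization, -0.017 with at least 10 counts in every library, -0.013 with protein-coding genes alone, and it ranged from -0.15 (without control replicate 1) to 0.098 (without control replicate 2) when 1 library was left out. The same range was -0.086 (without KO replicate 3) to 0.009 (without control replicate 1) for SRSF6, -0.35 (without KO replicate 2) to 0.12 (without KO replicate 1) for HNRNPA1L2, and -0.032 (without KO replicate 1) to 0.19 for U2AF1. Causes were not tested beyond what each setting changes.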
